A study of Mus musculus with 2 samples.

Results

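The small leucine-rich proteoglycans described here are 9 genes, *Dcn* (decorin), *Bgn* (biglycan), *Aspn* (asporin), *Lum* (lumican), *Fmod* (fibromodulin), *Prelp*, *Omd* (osteomodulin), *Ogn* (osteoglycin, also called mimecan) and *Podn* (podocan), taken by symbol from the 33696 genes counted in each library. They were followed in stromal cells of the mammary gland of wildtype female C57BL/6 mice at 4 weeks of age, in puberty, and at 9 weeks, as adult virgins. The labels give 1 droplet-based single-cell RNA library for each age, marked as replicate 2, and name 2 females per condition. Sorting had kept cells without lineage markers and CD24, which is meant to remove immune, endothelial, red blood and epithelial cells. Each age had a single library here, which leaves no replicates to test, and the labels do not say plainly whether both females were pooled in it. Every ratio compares these libraries, and the 95% intervals cover counting error only, not the spread between mice.

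Small leucine-rich proteoglycans are secreted proteins built around a curved stretch of leucine-rich repeats, most of which carry chains of chondroitin, dermatan or keratan sulfate. They lie on the surface of collagen fibrils, set fibril diameter and spacing, and bind growth factors such as TGF-β. Decorin, biglycan and asporin form class I. Lumican, fibromodulin, PRELP and osteomodulin belong to class II, osteoglycin to class III and podocan to class V. Decorin and lumican are among the transcripts most widely used to recognise fibroblasts, including those of the mammary gland.

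Several of these genes are neighbours in the mouse genome (coordinates from RefSeq, GRCm38.p6, the assembly of the mm10 build named in the submitters' processing notes). *Aspn* (chr13:49544443-49567565), *Omd* (chr13:49582462-49592612) and *Ogn* (chr13:49608015-49624501) follow each other with no other protein-coding gene between them, and *Ecm2*, a relative, precedes *Aspn*. *Dcn* (chr10:97479500-97518163) is followed by *Lum* (chr10:97565501-97572703) and then by the relatives *Kera* and *Epyc*. *Prelp* (chr1:133910304-133930102) lies next to *Fmod* (chr1:134037254-134048280), while *Podn* (chr4:108014793-108031954) and *Bgn* (chrX:73483601-73495936) stand alone. The 250 bases before the annotated start of the 3 neighbours on chromosome 13 are shown because all 3 genes had adult over puberty ratios below 1 in Pdgfra+ cells and were higher in Pi16+Dpp4+ cells than in other Pdgfra+ cells of both libraries. They were read from the RefSeq promoter table (GRCm38.p6, plus strand), which held 7 of the 9 genes. *Dcn* and *Lum* had no entry.
Aspn, chr13:49544193-49544442: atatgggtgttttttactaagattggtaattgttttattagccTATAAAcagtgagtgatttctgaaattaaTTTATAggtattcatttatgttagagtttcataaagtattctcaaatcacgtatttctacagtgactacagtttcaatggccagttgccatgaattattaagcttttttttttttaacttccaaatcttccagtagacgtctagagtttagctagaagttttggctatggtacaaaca
Omd, chr13:49582212-49582461: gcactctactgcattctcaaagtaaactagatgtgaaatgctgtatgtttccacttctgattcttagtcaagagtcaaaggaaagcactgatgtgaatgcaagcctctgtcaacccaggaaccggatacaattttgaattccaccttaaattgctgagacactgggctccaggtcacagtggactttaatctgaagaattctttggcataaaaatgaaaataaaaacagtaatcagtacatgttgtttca
Ogn, chr13:49607765-49608014: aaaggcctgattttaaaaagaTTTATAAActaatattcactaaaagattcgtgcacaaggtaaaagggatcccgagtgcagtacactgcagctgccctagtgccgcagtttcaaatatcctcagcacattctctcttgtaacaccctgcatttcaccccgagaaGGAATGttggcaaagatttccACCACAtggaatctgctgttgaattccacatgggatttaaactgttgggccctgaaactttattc
Capitals mark matches, on either strand, to 4 short motifs: TATAAA (the TATA box), GGAATG (TEAD factors), CAGACA (SMAD factors) and TGTGGT (RUNX factors). *Aspn* had TATAAA on both strands, starting 207 and 178 bases before the start, and no other match. *Ogn* had overlapping matches to TATAAA on both strands at 229 and 227 bases, GGAATG at 86 bases and TGTGGT on the minus strand at 65 bases before the start. *Omd* had none of the 4 motifs. Of 32851 windows of the same length in the table, 12.4% held TATAAA, 12.6% GGAATG, 17.1% CAGACA and 14% TGTGGT, so each motif is common. The 3 windows shared no motif among these 4.

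The pubertal library held 255274670 unique molecular identifiers (UMIs) in 21688 barcodes and the adult library 259549498 UMIs in 23183 barcodes, with medians of 11726 and 10781 UMIs per barcode. Cells with at least 500 genes and at most 10% mitochondrial UMIs were kept (21534 and 22972). There were 145 barcodes that occurred in both libraries, and leaving them out changed none of the calls described here. Cells with at least 1 *Pdgfra* UMI, called Pdgfra+ cells, numbered 18878 at puberty and 20999 in the adult. The 6 fibroblast markers, *Pdgfra* itself included, were each detected in 80.2% to 100% of these cells at puberty and 59.0% to 100% in the adult (*Igfbp5* lowest), and summed to 43002 and 26265 CPM, where CPM is the UMIs of a gene summed over the cells of a population per 1000000 UMIs of that population. The 5 epithelial markers were each in at most 0.143% of them (3.16 and 1.12 CPM in sum), the 5 immune markers in at most 1.32% (2.02 and 1.80 CPM) and the 5 muscle markers in at most 1.5% (2.46 and 3.04 CPM). Some markers of other cells were more widespread. Of the 5 endothelial markers (26.0 and 11.7 CPM) *Pecam1* was in 10.4% and 4.16% of Pdgfra+ cells, of the 5 Schwann markers (27.3 and 28.5 CPM) *Mbp* in 20.8% and 16.1%, and of the 10 mural markers (239 and 246 CPM) *Pdgfrb* in 43.6% and 63.2%. The kit captures transcript ends, so CPM is not scaled by gene length and was compared between cells for the same gene, not between genes.

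The 5 subsets of Pdgfra+ cells were drawn by marker UMIs and could overlap. Pi16+Dpp4+ cells, which carry the markers of fibroblast progenitors, made up 74.1% of pubertal and 42.2% of adult Pdgfra+ cells. Cells with *Gdf10* or *Fmo2*, genes of adipogenesis-regulatory fibroblasts, made up 39.5% and 47.9%. Cells with *Thbs4* or *Bmp5*, genes of lobular-like fibroblasts, made up 4.91% and 14.8%, those with at least 2 UMIs of *Fabp4*, a fatty acid carrier, 9.42% and 12.2%, and those with *Crabp1*, a retinoic acid-binding protein, 1.53% and 12.7%. The overlap was wide. Of pubertal Gdf10 or Fmo2 cells 55.9% were also Pi16+Dpp4+, and of adult Fabp4 cells 72.3% also carried *Gdf10* or *Fmo2*. Mural cells, the pericytes and smooth muscle cells around vessels, were taken as cells with *Myh11* or *Rgs5* and no *Pdgfra* UMI, and numbered 783 and 457. *Acta2* was found in 92.1% and 76.8% of them and *Notch3* in 81.4% and 79.4%, and of 8 further mural markers all but *Kcnj8* and *Abcc9* were above their Pdgfra+ level at puberty and all 8 in the adult.

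Together the 9 genes supplied 1.19% of all UMIs of Pdgfra+ cells at puberty and 1.53% in the adult. *Dcn* alone accounted for 66% and 73.3% of these proteoglycan UMIs, and the part from *Ogn* was 14.1% and 7.94%. In every one of the 5 subsets the 9 genes together took a larger part of the UMIs in the adult library, from 1.13% to 1.45% in Pi16+Dpp4+ cells and from 1.12% to 1.54% in Crabp1 cells. In mural cells they supplied 0.251% and 0.201%.

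**Figure D1:**
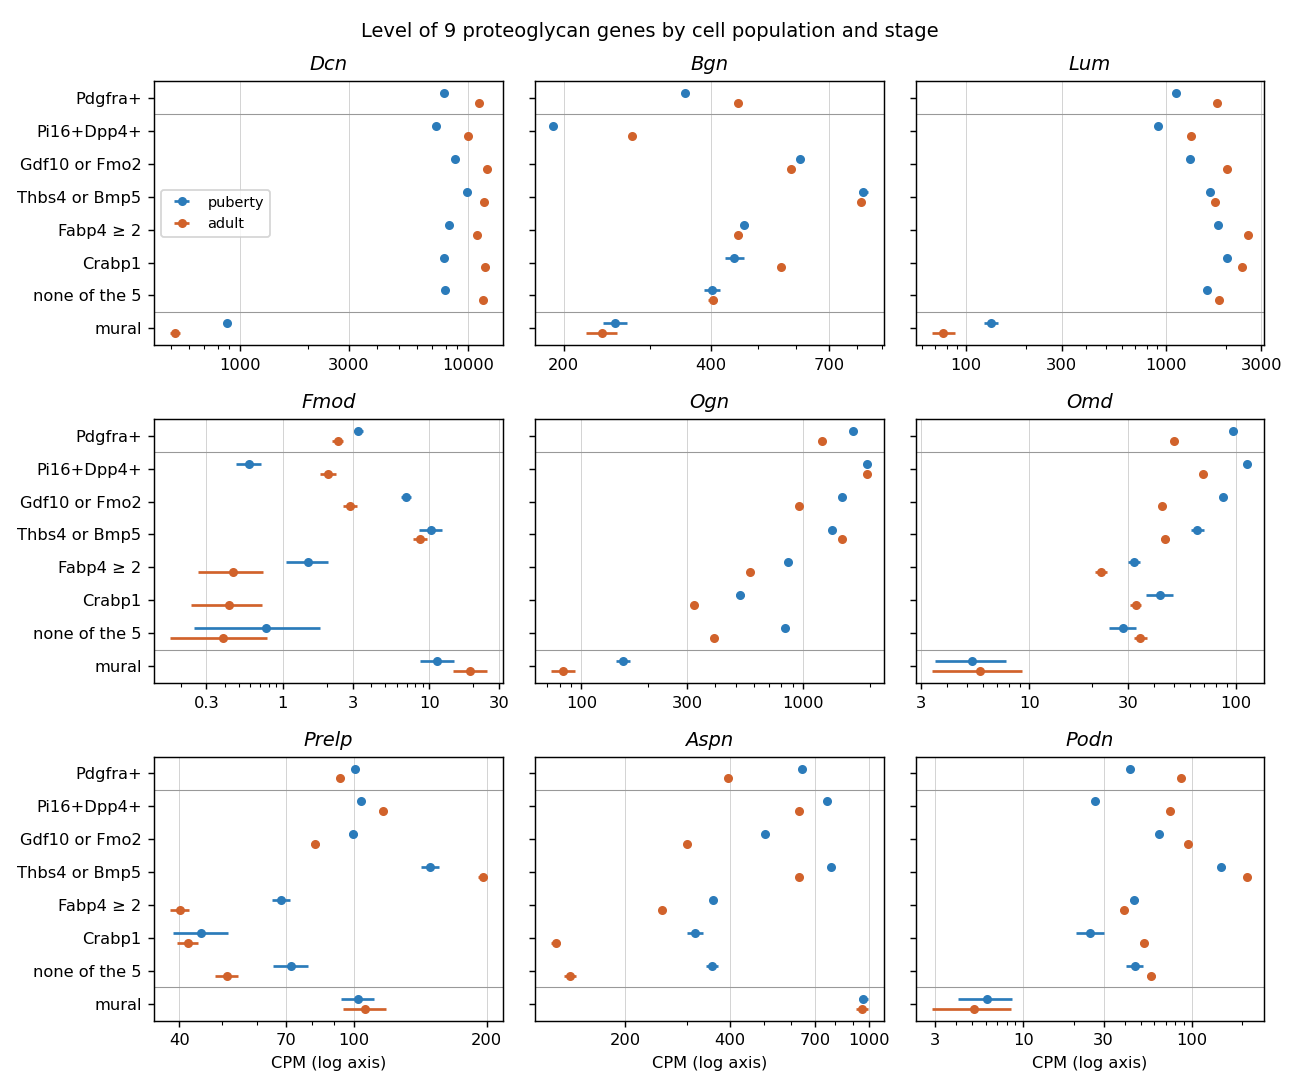
CPM (log axis, a separate range for each gene) of the 9 genes in all Pdgfra+ cells, the 5 overlapping subsets, the Pdgfra+ cells in none of them, and mural cells, with exact Poisson 95% intervals; a point is missing where no UMI was counted (*Fmod* in pubertal Crabp1 cells). *Dcn* and *Lum* lie far lower in mural cells, *Aspn* is highest there, and *Prelp* and *Podn* are highest among fibroblasts in the Thbs4 or Bmp5 cells.

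The stage comparison asks how fibroblasts of the growing pubertal gland differ from those of the mature virgin gland. *Lum* and *Podn* were at least 1.5-fold higher in the adult library and *Omd* and *Aspn* at least 1.5-fold lower, of 8 members that reached 10 CPM in at least 1 library. *Fmod* did not reach it. With the same rule, 12% of 8645 genes were higher in the adult and 5.09% lower. The median log2 ratio was -0.11 over the 9 members and 0.13 over all genes, so the members did not move as a group.

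In class I, *Dcn*, which binds collagen and TGF-β, was counted at 7843 CPM at puberty and 11207 CPM in the adult, a ratio of 1.43 (interval 1.426 to 1.432), under the 1.5-fold rule. *Bgn*, its closest relative, was at 355 and 455 CPM, a ratio of 1.28 (1.27 to 1.29). *Aspn*, which competes with decorin for collagen and binds TGF-β, went the other way, with 644 and 394 CPM and a ratio of 0.611 (0.606 to 0.616). Thus *Dcn* and *Bgn* were higher and *Aspn* lower in the adult library. The intervals are narrow because many UMIs were counted, and they do not cover the spread between cells or mice. Within subsets *Bgn* was near level in Gdf10 or Fmo2 (0.959), Thbs4 or Bmp5 (0.990) and Fabp4 cells (0.973). It was higher in the adult in Pi16+Dpp4+ (1.455) and Crabp1 cells (1.25).

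In class II, *Lum*, which organises collagen fibrils, was at 1124 CPM at puberty and 1795 CPM in the adult, a ratio of 1.60 (1.59 to 1.61). *Omd*, known from bone and tooth matrix, was at 96.4 and 50.0 CPM, the lowest stage ratio of the 9 at 0.518 (0.507 to 0.530). *Prelp*, which anchors basement membranes to the underlying matrix, was at 100 and 92.9 CPM, a ratio of 0.925 (0.909 to 0.942). *Fmod*, a regulator of fibril assembly, was rare, with 774 and 585 UMIs in all Pdgfra+ cells (3.27 and 2.36 CPM). Of class II, then, *Lum* was higher and *Omd* lower past the rule, and *Prelp* differed little.

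*Ogn*, the class III member, was at 1674 CPM at puberty and 1214 CPM in the adult, a ratio of 0.725 (0.722 to 0.729). *Podn*, the class V member, was at 43.1 and 85.8 CPM, the highest ratio of the 9 at 1.99 (1.94 to 2.04). The share of cells with a UMI was compared after each cell was thinned to 3000 UMIs. *Ogn* was then found in 90.2% of pubertal (exact Clopper-Pearson interval 89.8 to 90.7) and 65.3% of adult Pdgfra+ cells (64.6 to 65.9). *Aspn* was found in 70.3% (69.6 to 70.9) and 42.8% (42.1 to 43.4), and *Omd* in 22.9% (22.3 to 23.5) and 12.4% (11.9 to 12.8). Before thinning, these shares were 95.6% and 74.6%, 86.3% and 58.7%, and 55.8% and 32.5%. The 3 genes were therefore found in fewer cells of the adult library at equal depth.

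*Podn* was found in 10.6% (10.2 to 11.1) and 19.4% (18.9 to 19.9) of thinned Pdgfra+ cells, and in 29.2% and 42.6% unthinned. *Bgn* was found in 39.5% (38.8 to 40.2) and 53.3% (52.6 to 54.0), and in 60.4% and 72.4% unthinned. Thinned and then unthinned, *Lum* was found in 88.3% and 93.5% (98.4% and 97.6%), *Prelp* in 24.9% and 21.6% (61.7% and 48.4%), *Fmod* in 0.793% and 0.413% (1.53% and 0.848%) and *Dcn* in 99.9% and 99.6% (99.9% and 99.6%). Free RNA in droplets gives some positive cells of any type. In the 40 pubertal and 92 adult cells with at least 3 of 5 muscle markers, median depth 5697 and 5386 UMIs against 12187 and 11265 in Pdgfra+ cells, the thinned shares were 13.2% and 33.7% for *Dcn*, 5.26% and 21.3% for *Bgn*, 0% and 3.37% for *Lum*, 15.8% and 19.1% for *Ogn*, 15.8% and 29.2% for *Prelp*, and 0% in both for *Podn* and *Fmod*. The adult share for *Prelp* was above its 21.6% in adult Pdgfra+ cells, and no stage difference is read from the *Prelp* shares. In adult muscle-marker cells *Prelp* was at 142 CPM and *Dcn* at 206 CPM, against 92.9 and 11207 CPM in adult Pdgfra+ cells. The source of *Prelp* in muscle-marker cells was not tested, so its share there is not used as a measure of free RNA. Of 38 thinned pubertal muscle-marker cells, a count of 0 allows up to 7.89%.

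The stage ratios depended on how the cells were weighted. When the adult cells were re-weighted to the pubertal shares of the combinations of subset markers, no member was 1.5-fold higher and *Omd* alone stayed 1.5-fold lower, at 0.665. *Podn* went from 1.99 to 1.47, *Lum* from 1.60 to 1.32, and *Dcn* from 1.43 to 1.32. *Ogn* went from 0.725 to 1.01 and *Aspn* from 0.611 to 0.803, while *Bgn* crossed to 0.807. The combinations were drawn by UMIs of the markers themselves, and the part of composition in the stage ratios was not tested. Scaling also mattered, since the ratio of all genes was centred above equality. With TMM scaling, which moved log2 stage ratios in Pdgfra+ cells by -0.14, *Lum* stood at 0.53 on the log2 scale and out of the 1.5-fold rule, *Ogn* at -0.61 and within it, and all 9 members kept their direction.

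**Figure D2:**
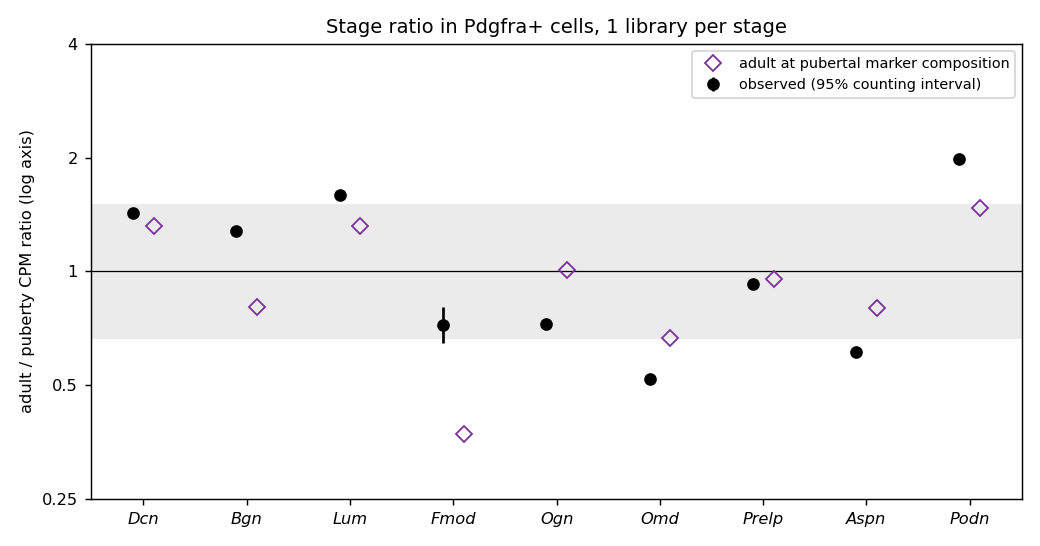
Adult over pubertal CPM ratio (log axis) of each gene in Pdgfra+ cells, as observed (circles, with conditional binomial 95% intervals) and with the adult cells re-weighted to the pubertal composition of subset markers (diamonds); the grey band spans ratios under 1.5-fold. *Lum*, *Podn*, *Omd* and *Aspn* lie outside the band as observed, *Omd* at its edge after re-weighting, and *Fmod*, at 0.371, far below it.

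Within the subsets, 41 of 45 pairs of member and subset reached 10 CPM. Of these, 4 were at least 1.5-fold higher in the adult library, near the 8.55% of the pairs of all genes, and 7 at least 1.5-fold lower, beside 5.38%. *Podn* was higher in Pi16+Dpp4+ cells, from 26.6 to 74.6 CPM (ratio 2.81, interval 2.71 to 2.91), and in Crabp1 cells, from 25.0 to 52.1 CPM (2.08, 1.71 to 2.56). *Lum* was higher in Gdf10 or Fmo2 cells, from 1322 to 2034 CPM (1.54, 1.53 to 1.55), and *Dcn* in Crabp1 cells, from 7827 to 11839 CPM (1.51, 1.496 to 1.53). *Dcn* and *Lum* had ratios above 1 in all 5 subsets, between 1.18 and 1.51 for *Dcn* and between 1.07 and 1.54 for *Lum*.

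Of the lower pairs, all but that of *Prelp* were genes of chromosome 13. *Omd* was lower in Pi16+Dpp4+ cells, from 113 to 68.9 CPM (ratio 0.610, interval 0.594 to 0.625), and in Gdf10 or Fmo2 cells, from 86.5 to 43.9 CPM (0.507, 0.490 to 0.525). *Aspn* was lower in Gdf10 or Fmo2 cells (0.599, 0.591 to 0.608) and in Crabp1 cells, from 318 to 126 CPM (0.397, 0.373 to 0.423). *Ogn* was lower in Gdf10 or Fmo2 cells (0.644, 0.639 to 0.648) and Crabp1 cells (0.619, 0.591 to 0.648). In Pi16+Dpp4+ cells *Ogn* stood at 1953 and 1939 CPM, a ratio of 0.993 (0.988 to 0.998), so there its CPM was the same within 1% in both libraries. That closeness depends on the scaling, since TMM scaling moved log2 stage ratios in these cells by -0.15. *Prelp* was lower in Fabp4 cells, from 68.2 to 40.1 CPM (0.588, 0.548 to 0.630). With cells of more than 1 subset left out, *Omd* in Pi16+Dpp4+ cells, *Ogn* in both subsets and *Lum* in Gdf10 or Fmo2 cells no longer passed the rule, and *Dcn* in Crabp1 cells did not pass it once doublets were removed.

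The Pi16+Dpp4+ cells differed from the other fibroblasts in 5 of the 9 genes. *Ogn*, *Omd* and *Aspn* were at least 1.5-fold higher than in the remaining Pdgfra+ cells of the same library, in both libraries, and *Bgn* and *Lum* lower, beside 7.29% of genes higher and 8.69% lower by this rule. *Aspn* was 2.94-fold higher at puberty (interval 2.89 to 2.99) and 3.82-fold in the adult (3.76 to 3.88). *Ogn* was 2.62-fold and 3.72-fold higher, and *Omd* 2.74-fold and 2.16-fold. *Bgn* had ratios of 0.210 (0.208 to 0.213) and 0.442 (0.437 to 0.448), and *Lum* of 0.498 and 0.602. *Podn* was low at puberty, at 0.270 of the other cells, and less so in the adult, at 0.772. *Prelp* was near the others at puberty (1.15) and 1.64-fold higher in the adult.

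The Thbs4 or Bmp5 cells had the highest levels of *Bgn*, *Prelp* and *Podn* among the 5 subsets, and all 3 were at least 1.5-fold above the other Pdgfra+ cells in both libraries, beside 3.09% of genes. *Podn* was at 150 CPM at puberty and 213 CPM in the adult, 3.98-fold (3.78 to 4.19) and 3.42-fold (3.33 to 3.51) above the others. *Bgn* was at 824 and 815 CPM, 2.49-fold and 2.10-fold above the others. *Prelp* was at 149 and 196 CPM, 1.52-fold (1.45 to 1.60) and 2.66-fold (2.59 to 2.73) above them. *Aspn* was at 778 and 631 CPM, about its level in Pi16+Dpp4+ cells (760 and 632 CPM), with ratios to the others of 1.22 and 1.81. *Ogn* had ratios of 0.798 and 1.30. Of Thbs4 or Bmp5 cells 45.5% at puberty and 44.3% in the adult were also Pi16+Dpp4+. No member was 1.5-fold lower in both libraries, against 2.37% of genes. Stage ratios in these cells stayed between 0.698 (*Omd*) and 1.42 (*Podn*).

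In Gdf10 or Fmo2 cells *Bgn* alone was at least 1.5-fold higher in both libraries (1.83% of genes), by 3.53-fold (3.48 to 3.59) at puberty and 1.83-fold (1.80 to 1.85) in the adult. These cells held 71.7% of pubertal and 65.5% of adult *Bgn* UMIs of Pdgfra+ cells. No member was 1.5-fold lower in both libraries (1.84% of genes). *Aspn* came near, with ratios of 0.674 and 0.616, and it passed the rule when doublets were removed, when 2 UMIs of a marker were asked for, when cells were thinned, or when each cell counted equally. *Podn* was 2.28-fold higher at puberty and 1.26-fold in the adult.

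Fabp4 and Crabp1 cells were the subsets low in the proteoglycans of chromosome 13. In Fabp4 cells *Lum* was 1.76-fold (1.74 to 1.77) and 1.56-fold (1.54 to 1.57) higher, the sole member higher in both libraries (3.7% of genes). *Ogn*, *Omd*, *Prelp* and *Aspn* were lower in both (5.12% of genes), with ratios for *Omd* of 0.308 and 0.404 and for *Ogn* of 0.482 and 0.432. In Crabp1 cells *Ogn*, *Omd*, *Prelp*, *Aspn* and *Podn* were lower in both libraries (8.93% of genes). *Ogn* there was at 519 and 321 CPM, 0.306 and 0.238 of the other cells, and *Aspn* had ratios of 0.489 and 0.291. No member was 1.5-fold higher in Crabp1 cells in both libraries, against 9.15% of genes, though *Lum* had ratios of 1.82 and 1.41.

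**Figure D3:**
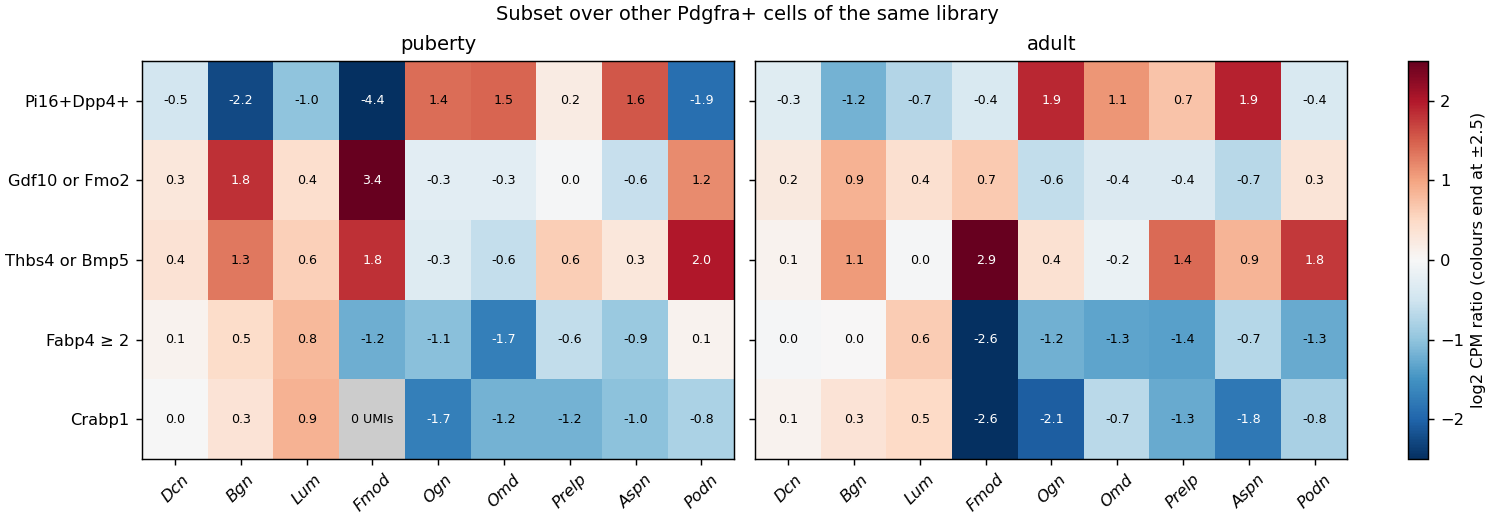
Log2 CPM ratio of each subset over the other Pdgfra+ cells of the same library, for puberty (left) and adult (right), with red for higher and blue for lower in the subset. *Ogn*, *Omd* and *Aspn* are red in the Pi16+Dpp4+ row and blue in the Fabp4 and Crabp1 rows of both libraries, and *Bgn* has the opposite sign in the Pi16+Dpp4+ and Gdf10 or Fmo2 rows.

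*Fmod* was carried by few cells. At puberty 288 of 18878 Pdgfra+ cells had a *Fmod* UMI, and Gdf10 or Fmo2 cells held 88.5% of the 774 UMIs. In the adult 178 cells had one, and 13 cells with at least 10 UMIs each held 48.2% of the 585 UMIs. The level was highest among the subsets in Thbs4 or Bmp5 cells, at 10.3 and 8.62 CPM, 3.55-fold (2.90 to 4.31) and 7.22-fold (6.11 to 8.54) above the other Pdgfra+ cells, and the counting intervals of the CPM overlapped between stages. In Crabp1 cells no UMI was counted among 289 pubertal cells, which allows a share of up to 1.04% of them, and 14 UMIs among 2672 adult cells.

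Of the 9 members, 6 differed at least 1.5-fold between mural and Pdgfra+ cells in both libraries. *Dcn*, *Lum*, *Ogn*, *Omd* and *Podn* were at least 1.5-fold lower in both libraries and *Fmod* higher, where 19.8% of genes were lower and 23.4% higher by this rule. *Aspn* stood at 965 and 957 CPM in mural cells, a stage ratio of 0.991 (0.946 to 1.04), against 644 and 394 CPM in Pdgfra+ cells. Its ratios to Pdgfra+ cells of 1.498 (interval 1.46 to 1.54) and 2.43 (2.34 to 2.52) fell just short of the rule at puberty. At 3000 UMIs per cell *Aspn* was found in 88.0% (85.5 to 90.3) and 81.3% (77.0 to 85.1) of mural cells, and in 93.4% and 84.9% unthinned, against 0% and 1.12% of the muscle-marker cells.

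*Prelp* was level between mural and Pdgfra+ cells, at 102 and 106 CPM in mural cells and ratios of 1.01 (0.927 to 1.11) and 1.14 (1.01 to 1.27). *Bgn* was at 255 and 239 CPM, ratios of 0.718 and 0.526. *Fmod* was 3.48-fold (2.62 to 4.54) and 8.08-fold (6.03 to 10.6) higher, resting on 58 and 56 UMIs. *Dcn* was at 883 and 521 CPM, or 0.112 and 0.0465 of its Pdgfra+ level, and *Lum* at 0.118 and 0.0427. The mural set was mixed. Its 27 pubertal and 65 adult cells with *Rgs5* but no *Myh11* had *Dcn* at 5134 and 2608 CPM and *Lum* at 610 and 378 CPM, while the cells with both genes had *Dcn* at 124 and 235 CPM and *Lum* at 19.1 and 20.4 CPM.

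The 6 genes of fibroblasts chosen outside the family (*Dpt*, *Clec3b*, *Pi16*, *Mfap5*, *Dpp4* and *Scara5*) had mural over Pdgfra+ ratios between 0.0726 and 0.0946 at puberty and between 0.0403 and 0.0872 in the adult. In this set *Ogn* in both libraries, and *Dcn*, *Lum* and *Podn* in the adult, lay within these ranges. *Omd* lay below the range at puberty (0.0549, on 27 UMIs) and above it in the adult (0.116, on 17 UMIs). *Bgn*, *Prelp*, *Aspn* and *Fmod* lay far above. The mural label was then tightened to cells with at least 3 of 8 further mural markers (711 and 394 cells), a choice made after seeing the data. The 6 genes then had ratios of 0.0263 to 0.0388 and 0.00527 to 0.0162, and *Dcn* (0.0285 and 0.00842) and *Lum* (0.0272 and 0.00921) lay within these ranges, so for them fibroblast RNA in mural droplets cannot be told apart from low expression. *Ogn* (0.0496 and 0.0253, on 385 and 76 UMIs) and *Podn* (0.0799 and 0.0376, on 16 and 8 UMIs) lay above the ranges of the 6 genes. For *Omd* (0.0201 and 0.00807) 9 and 1 UMIs were left, too few to place it. *Aspn* had ratios of 1.58 and 2.78, past the rule in both libraries. *Bgn* (0.691 and 0.505) and *Prelp* (1.03 and 1.12) hardly moved.

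Markers of other cells moved with the mural set. The 5 epithelial markers summed to 34.9 CPM in pubertal and 610 CPM in adult mural cells, in 0.383% to 0.766% and 2.41% to 5.69% of cells. Without the cells that had any of them (774 and 427 cells left, also chosen after seeing the data), *Fmod* went from 19.1 to 12.5 CPM in the adult and its ratio to Pdgfra+ cells from 8.08 to 5.28. In the adult mural set *Fmod* UMIs went from 56 to 32 and *Aspn* UMIs from 2807 to 2806. Whether the epithelial markers came from free RNA or from epithelial cells within the mural set was not tested. *Aspn* then had ratios of 1.51 and 2.78. Mural cells were also shallower, with medians of 6334 and 6126 UMIs, and in cells thinned to equal depth *Aspn* in place of *Fmod* was the member called higher.

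**Figure D4:**
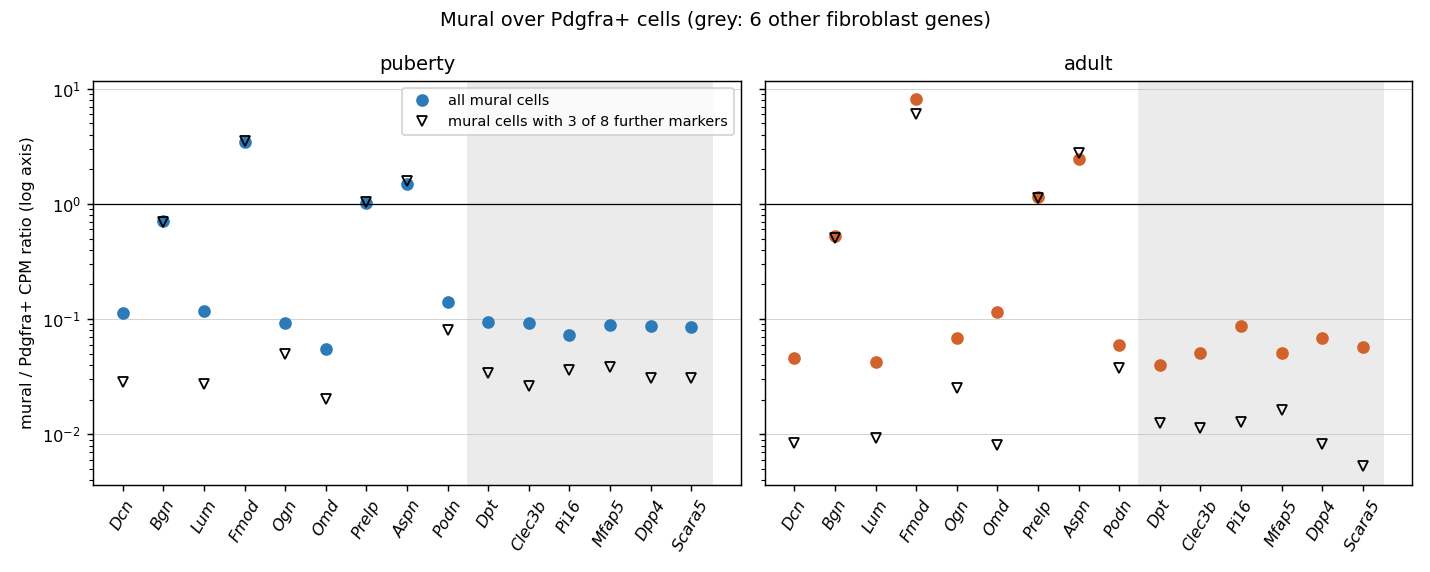
Mural over Pdgfra+ CPM ratio (log axis) of the 9 members and, on grey, of 6 other fibroblast genes, at puberty (left) and in the adult (right), for all mural cells (filled circles) and for those with at least 3 of 8 further mural markers (open triangles). *Fmod*, *Aspn*, *Prelp* and *Bgn* stand above the other genes, and tightening the set lowers the other 5 members together with the 6 fibroblast genes.

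Among the few other cells, *Ogn* was high in those with at least 3 of 5 Schwann markers, the glia of peripheral nerve. Its level was 1018 CPM over 59 such cells at puberty and 1546 CPM over 49 in the adult, against 1674 and 1214 CPM in Pdgfra+ cells. *Dcn* in the same cells was at 63.1 and 60.9 CPM and *Aspn* at 9.01 and 4.69 CPM. At 3000 UMIs per cell *Ogn* was found in 25.7% (12.5 to 43.3) of 35 and 52.6% (28.9 to 75.6) of 19 Schwann-marker cells. Unthinned it was in 27.1% and 73.5% of these cells, so at puberty the pooled level came from a minority of them. At 5000 UMIs per cell it was in 40% of 15 pubertal and 0% of 5 adult cells. In muscle-marker cells *Prelp* was at 66.3 and 142 CPM, while *Aspn* was at 4.15 and 3.78 CPM.

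Stage ratios in Pdgfra+ cells were set beside the order of the genes on their chromosomes. *Aspn*, *Omd* and *Ogn* on chromosome 13 were all lower in the adult Pdgfra+ cells, whereas *Ecm2*, 11653 bases before *Aspn*, was higher, at 108 and 166 CPM (ratio 1.53, 1.51 to 1.55). On chromosome 10, *Dcn* (1.43) and *Lum* (1.60) were followed by *Kera*, which encodes keratocan of the corneal stroma, at 2.87 and 13.9 CPM (4.86, 4.48 to 5.29), and *Epyc*, which encodes epiphycan of cartilage, at 0.583 and 2.60 CPM (4.46, 3.70 to 5.39). *Kera* was highest in Crabp1 cells, at 61.1 CPM at puberty and 38.4 CPM in the adult, and *Crabp1* cells were 1.53% and 12.7% of Pdgfra+ cells. Within Crabp1 cells *Kera* was thus lower, not higher, in the adult library. In each of the other subsets it was higher in the adult. It went from 0.693 to 4.75 CPM in Pi16+Dpp4+ cells and from 3.155 to 16.6 CPM in Gdf10 or Fmo2 cells. In Thbs4 or Bmp5 cells it went from 4.26 to 7.21 CPM, and in Fabp4 cells from 6.54 to 26.45 CPM. The part of subset composition in the *Kera* ratio was not tested. Among *Prelp*, *Fmod* and their neighbour *Optc*, whose UMIs were few (137 and 96), all ratios were below 1.

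**Figure D5:**
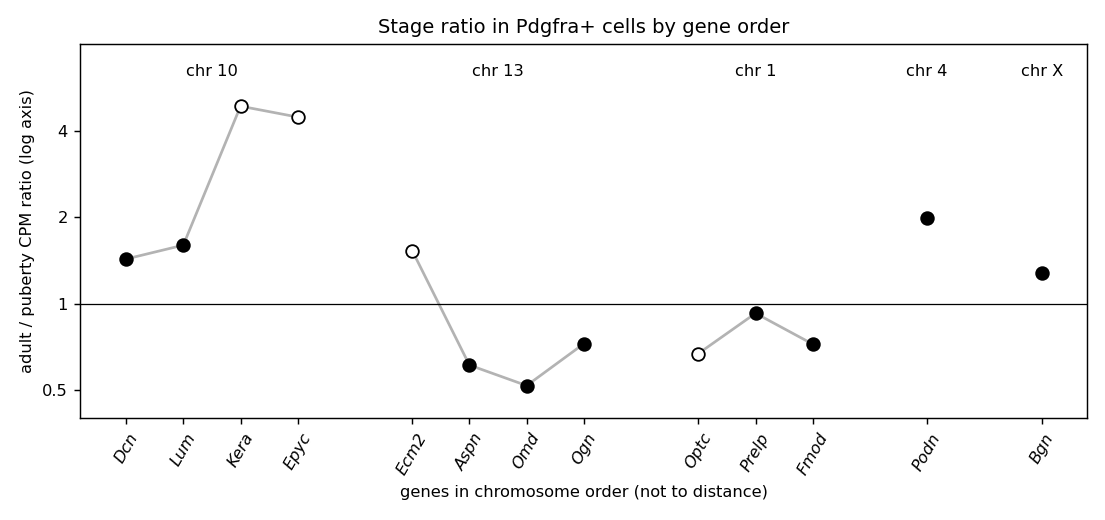
Adult over pubertal CPM ratio (log axis) in Pdgfra+ cells for the 9 members (filled) and 4 neighbouring relatives (open), in chromosome order and not to distance. The 4 genes of chromosome 10 lie above 1, and on chromosome 13 *Ecm2* lies above 1 and *Aspn*, *Omd* and *Ogn* below.

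Members found in the same cell were also counted. In Pdgfra+ cells thinned to 3000 UMIs, *Ogn* and *Aspn* were found together in 66.9% of pubertal and 37.3% of adult cells, 1.06 and 1.34 times the product of their shares. *Bgn* and *Podn* were found together 1.78 and 1.36 times as often as that product, and *Bgn* and *Aspn* 0.797 and 0.781 times. *Fmod* and *Podn* were together in 78 and 50 cells, 4.99 and 3.03 times the product. These figures describe cells of 1 library each and carry no test.

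Over 12 points (the 5 subsets and the Pdgfra+ cells in none of them, in both libraries, which share cells and libraries), the log2(CPM + 5) of *Ogn* and *Aspn* had a Pearson r of 0.94, and that of *Lum* and *Omd* an r of -0.86. Of 8386 genes, those most like *Ogn* were *Fndc1* (r = 0.994), *Carhsp1* and *Fgf18*, and those most like *Aspn* were *Cited2* (0.988), *Sulf2* and *Fgf18*. *Prelp* was closest to *Mn1* (0.981), *Ccn5* and *Slc8a1*, and *Omd* to *AW551984* (0.965), *Mif4gd* and *Pals2*. *Lum* was closest to *Col18a1* (0.968) and *Tmem119*, *Bgn* to *Mgp* (0.941), *Abat* and *Tspan11*, and *Podn* to *Angpt1* (0.938), *Eng* and *Ms4a4d*. *Dcn* was closest to *Ubxn2a* (0.957), *Nipa1* and *Ttc33*, and *Fmod* to *Tgfbi* (0.899), *Ltbp4* and *Sertad4*. All are correlations over few points and are given as descriptions.

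Of 9 other members and relatives of the family, *Kera* and *Ecm2* reached 10 CPM, and both were at least 1.5-fold higher in the adult. By the same rule 12% of all genes were higher and 5.09% lower. *Tsku* (1499 and 1205 UMIs), *Chadl* (1490 and 1358), *Nyx* (48 and 46) and *Podnl1* (15 and 11) had ratios below 1, and *Chad* had 0 and 1 UMI. Of 22 enzymes that build and sulfate chondroitin and dermatan sulfate chains, 16 reached 10 CPM. Of these, 3 were higher and 1 lower, beside 12% and 5.09% of all genes. *Csgalnact1*, which adds the first galactosamine of the chain, was at 35.5 and 94.3 CPM (ratio 2.65), and *Chsy1*, which extends the chain, at 26.3 and 43.7 CPM (1.66). *Xylt1*, which adds the xylose that starts it, was at 269 and 131 CPM (0.487). The median log2 ratio of the list was 0.10, against 0.13 for all genes. *Chst15* (2.23) was also higher, below 20 CPM, and is named after its value was seen.

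Of 10 keratan sulfate enzymes 7 reached 10 CPM, and *Chst2* (3.29, below 20 CPM and named after its value was seen) was higher, beside 12% of all genes. The list's median was 0.13. Of 13 genes of cleavage and uptake 10 reached 10 CPM, of which 2 were higher and 1 lower, beside 12% and 5.09% of all genes. *Mmp3* (stromelysin), a protease that degrades matrix proteins, was higher, at 276 and 636 CPM (2.30), as was the aggrecanase *Adamts4*, at 34.7 and 52.8 CPM (1.52). *Adamts1*, a protease of large proteoglycans, was lower, at 1344 and 736 CPM (0.548). The median of this list was 0.0064.

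Of 16 binding partners and receptors 14 reached 10 CPM. Of these, 2 were higher (*Tgfb1*, 1.66, and *Ccn4*, 2.70) and 4 lower, beside 12% and 5.09% of all genes. The 3 fibril-forming collagen genes on which these proteoglycans sit were lower in the adult, *Col1a1* at 9959 and 4825 CPM (0.484, 0.483 to 0.486), *Col1a2* at 11130 and 6972 CPM (0.626) and *Col3a1* at 17898 and 10299 CPM (0.575). Over the same cells the 9 proteoglycans together were at 11883 and 15295 CPM, and *Dcn* alone made up 66% and 73.3% of that sum. Of the 9 members 4 had ratios above 1, while *Omd* (0.518) and *Aspn* (0.611) lay within the range of the 3 collagens. *Kdr* (0.543) was the fourth gene of the list that was lower. *Kdr*, *Tgfb1* and *Ccn4* were below 20 CPM and are named after their values were seen. The list's median log2 ratio was -0.16.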

How the data were processed

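The libraries were made per the labels with the 10x Genomics Chromium GEM-X 3′ kit. For each library the authors deposited unnormalized UMI counts of genes by cell barcode, already filtered to cells, and the submitters' processing notes name Cell Ranger 8.0.1 and mm10. The study's methods describe another kit version and a slightly older pubertal age, and the labels were followed. Of 33696 gene identifiers 31961 occur in GENCODE M21, and the annotation behind the counts is not given in the sources used here.

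Cells were kept with at least 500 genes and at most 10% mitochondrial UMIs, and doublets were left in. Counts were summed over cells to CPM. Intervals are exact Poisson for CPM, conditional binomial for ratios and Clopper-Pearson for shares, at 95%, and a share of 0 was given the limit of 3 counts. A gene was called at a ratio of 1.5 in either direction with at least 10 CPM on 1 side, in both libraries for subset and mural contrasts. For detection each cell was thinned to 3000 UMIs. The adult was re-weighted over 19 classes of marker combinations, pooling those under 20 cells.

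Named genes were the 9 members, genes of the lists with at least 20 CPM and a called ratio, all other family members, and the 3 genes of most similar pattern per member. For *Lum* 1 of these genes is not reported here. The members and lists were chosen with earlier results of these data known. Alternatives were other filters, doublet removal (Scrublet in scanpy 1.11.5), 2 UMIs per marker, subsets without overlap, thinning, the mean of each cell's CPM, TMM scaling (edgeR 4.0.16, used for scaling factors only), median of ratios scaling, a fold of 2 and no CPM minimum. The ratio, its interval and the 1.5-fold rule were tested on Poisson counts simulated from the gene totals of the pubertal library. Those counts hold no spread between cells, and summing over cells was not part of the test. Tools were Python 3.11.15, scipy 1.17.1 and R 4.3.3.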

Additional observations from a re-analysis of the deposited data

Results flagged for a closer look

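For 3 members the stage ratio went past 1.5-fold one way in some cells and the opposite way in others. The minimum of 10 CPM was not asked for here, and the share of all genes with such a pattern was not counted. *Dcn* had an adult over puberty ratio of 1.51 in Crabp1 cells and 0.59 in mural cells, and *Lum* of 1.54 in Gdf10 or Fmo2 cells and 0.576 in mural cells. With 1 library per stage these differences were not tested. In mural cells the 6 other fibroblast genes were lower in the adult library too, such as *Dpt* at 169 and 72.6 CPM and *Mfap5* at 114 and 39.5 CPM, and their part in the mural ratios of *Dcn* and *Lum* was not tested. Most mural *Dcn* UMIs lay in few cells, since the 49 of 783 pubertal and 20 of 457 adult mural cells with at least 10 *Dcn* UMIs held 92.1% and 82.3% of them. In mural cells with both *Myh11* and *Rgs5*, *Dcn* was at 124 and 235 CPM and *Lum* at 19.1 and 20.4 CPM, so there neither gene was lower in the adult library.

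*Fmod* had ratios of 3.51 in Pi16+Dpp4+ cells and 1.68 in mural cells, against 0.416 in Gdf10 or Fmo2 cells and 0.305 in Fabp4 cells, and these differences were not tested either. The Pi16+Dpp4+ ratio rests on 106 and 247 UMIs, the mural ratio on 58 and 56 UMIs and the Fabp4 ratio on 38 and 17 UMIs. *Fmod* was at 0.583 and 2.04 CPM in Pi16+Dpp4+ cells, 6.93 and 2.88 CPM in Gdf10 or Fmo2 cells and 1.49 and 0.454 CPM in Fabp4 cells. All of these are under 10 CPM, so the ratios in these subsets are not calls by the rule used elsewhere. Without cells that had an epithelial marker, mural *Fmod* was at 11.3 CPM at puberty and 12.5 CPM in the adult.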

How the results depend on the processing

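Over 13 alternatives, 2 of 1431 member ratios were past 1.5-fold and then changed direction, with no CPM minimum asked for in this count. Both were in subsets without overlap, where the log2 stage ratio was -0.76 for *Fmod* in Pi16+Dpp4+ cells and 0.10 for *Ogn* in Crabp1 cells. Of the others, 792 stayed within their counting interval and 637 moved. Ratios with no UMI on 1 side were left out. Members higher in the adult numbered 1 (*Podn*) under TMM or median of ratios scaling and 0 after re-weighting or at a fold of 2, against 2. Members lower numbered 1 (*Omd*) after re-weighting and 0 at a fold of 2. Pairs higher in the adult numbered 2 (*Podn* in Pi16+Dpp4+ and Crabp1 cells) under both scalings and at a fold of 2, and pairs lower 1 (*Aspn* in Crabp1 cells) at a fold of 2. In Gdf10 or Fmo2 cells members higher numbered 2 without overlap (*Bgn*, *Podn*) or with no CPM minimum (*Bgn*, *Fmod*) and 0 at a fold of 2. Members lower there numbered 2 (*Ogn*, *Aspn*) without overlap and 1 (*Aspn*) with doublets removed, 2 UMIs per marker, thinning or the mean of cells. In mural cells members higher numbered 2 (*Fmod*, *Aspn*) with at least 1000 genes, doublets removed, 2 UMIs per marker or the mean of cells, and in both tightened mural sets, which were added after seeing the data. At a fold of 2, members higher in Fabp4 cells numbered 0, members lower there 2 (*Ogn*, *Omd*), members lower in Pi16+Dpp4+ cells 1 (*Bgn*) and members lower in Crabp1 cells 3 (*Ogn*, *Prelp*, *Aspn*). The causes were not tested. No paired analysis was possible because each stage had 1 library and the libraries share a single replicate number. Depth limits *Fmod* most, with few UMIs in several subsets, and the 289 pubertal Crabp1 cells.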

Other observations

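The Pdgfra+ cells with none of the subset markers, 706 at puberty and 2507 in the adult, also differed between the libraries. *Ogn* was at 826 CPM at puberty and 396 CPM in the adult, a ratio of 0.479 (interval 0.463 to 0.496). *Aspn* was at 355 and 139 CPM, a ratio of 0.392 (0.371 to 0.414). *Omd*, their neighbour, had a ratio of 1.22 (1.03 to 1.44) there, so the genes of chromosome 13 did not all differ the same way in these cells. *Lum* was at 1600 and 1839 CPM and *Dcn* at 7978 and 11600 CPM. These cells were shallower, with medians of 9977 and 7490 UMIs, against 12187 and 11265 in all Pdgfra+ cells.

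Mural cells with both *Myh11* and *Rgs5* had *Aspn* at 1026 CPM at puberty and 1272 CPM in the adult, and those with *Myh11* alone at 948 and 728 CPM. *Prelp* was at 105 and 112 CPM in the former and 101 and 102 CPM in the latter. The 27 pubertal and 65 adult cells with *Rgs5* alone had *Aspn* at 666 and 945 CPM, and they stood apart in *Dcn*, at 5134 and 2608 CPM. *Col3a1* was found in 92.6% and 75.4% of them and *Acta2* in 22.2% and 13.8%. *Fmod* was at 26.0 CPM in the 184 adult cells with *Myh11* alone and at 10.6 CPM in the 208 with both genes. Cells with an epithelial marker were kept in these counts.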
